A study of Mus musculus with 11 samples.

Results

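The expression of 10 genes of T cell subsets and checkpoints was examined in whole lacrimal glands of NOD mice. They are the coreceptor genes Cd4, Cd8a and Cd8b1, the regulatory T cell factor gene Foxp3, the costimulatory and checkpoint receptor genes Cd28, Ctla4, Lag3 and Tigit, and the T cell surface genes Cd5 and Thy1. They were taken by name from a table of 19058 genes, and all 10 were among the 13937 genes tested. NOD mice develop autoimmunity spontaneously, and in males it reaches the lacrimal gland, where lymphocytes gather in foci. RNA was sequenced from 1 gland per mouse in 3 WT, 5 Tlr7 KO and 3 Ifnar1 KO mice, all male and all on the NOD strain. The Tlr7 KO allele is a 2 base pair deletion made by gene editing in NOD embryos, fixed in the line and present in every cell of the animal, and the WT and Tlr7 KO mice were 20 to 22 weeks old. The Ifnar1 KO mice carry the gene-edited em16 allele, also in every cell, and their age was not given in the sources used here. The methods of the study state that 1 further Ifnar1 KO mouse, whose gland was as inflamed as the WT glands and whose library grouped with theirs, was removed by the authors, and it was not analysed here. The Ifnar1 KO group was thus in part chosen on inflammation.

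CD4 and CD8 are the coreceptors that bind class II and class I MHC molecules beside the T cell receptor, and they mark the helper and cytotoxic lineages. CD28 gives the second signal for activation when it binds CD80 or CD86, and CTLA-4 competes for the same ligands and restrains the cell. FOXP3 is the lineage factor of regulatory T cells, which carry much CTLA-4 and TIGIT, while LAG-3 binds class II MHC and limits activated T cells. TLR7 is an endosomal sensor of single-stranded RNA, and IFNAR1 is a chain of the receptor through which all type I interferons act.

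Each library had between 20512315 and 28814250 estimated counts on genes, and values are given as CPM, counts scaled to library size with TMM factors. A floor of 3 counts corresponds to between 0.082 and 0.157 CPM, depending on the library. This floor, like the binomial intervals given later, covers counting error only. Tlr7 had 2.39 ± 0.746 CPM in WT (SD, n = 3) and 0.776 ± 0.175 in Tlr7 KO (n = 5), and it was lower by the test (log2 fold change -1.62, adjusted p = 0.00365, edgeR). Ifnar1 had 13.5 ± 2.53 CPM in WT and 9.02 ± 0.625 in Ifnar1 KO (n = 3), also lower by the test (log2 fold change -0.61, adjusted p = 0.0485, edgeR). Tlr7 was also lower in Ifnar1 KO (0.563 ± 0.289 CPM, log2 fold change -2.10, adjusted p = 0.026), and Ifnar1 was lower in Tlr7 KO (9.54 ± 1.08 CPM, log2 fold change -0.51, adjusted p = 0.022). Between the knockouts they differed by 0.45 (adjusted p = 0.585) and 0.09 (adjusted p = 0.717), so these levels do not tell the 2 knockout labels apart. An edited allele can still be transcribed. Lacrimal gland epithelial markers summed to between 1780 and 2900 CPM in WT, between 5010 and 5580 in Tlr7 KO and between 5240 and 5940 in Ifnar1 KO, so genes of this list were expressed in every library. Markers of other glands were not examined, so the sums cannot tell the lacrimal gland from another gland. The gap between WT and the knockouts in these sums rests mainly on Lpo. Its means were 1590, 4520 and 4760 CPM in these groups, while those of Epcam were 74.1, 72.2 and 71.5 CPM.

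Of these genes, 6 sit in neighbouring pairs in the mouse genome (GRCm38, GENCODE M21). Cd4 (ENSMUSG00000023274, chr6:124864692-124888221, minus strand) and Lag3 (ENSMUSG00000030124, chr6:124904361-124911705, minus strand) are 16139 bases apart. Cd8b1 (ENSMUSG00000053044, chr6:71322788-71337494) and Cd8a (ENSMUSG00000053977, chr6:71373427-71379173), both on the plus strand, are 35932 bases apart. Cd28 (ENSMUSG00000026012, chr1:60716800-60773359) and Ctla4 (ENSMUSG00000026011, chr1:60887000-60915832), also on the plus strand, are 113640 bases apart. Foxp3 (ENSMUSG00000039521) lies at chrX:7573644-7595245 on the plus strand, Tigit (ENSMUSG00000071552) at chr16:43648867-43664146 on the minus strand, Cd5 (ENSMUSG00000024669) at chr19:10717116-10739002 on the minus strand and Thy1 (ENSMUSG00000032011) at chr9:44043384-44048579 on the plus strand. Exons of Foxp3 overlap annotated exons of Ccdc22, Ppp1r3f, Gm36995 and Flicr, and use of strand in the counting is not given in the sources used here. Counts of Foxp3 can therefore include reads of its neighbours. The exons of the other 9 genes overlap no other annotated gene.

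Promoter windows of 300 bases, from 250 before to 50 after an annotated start, were read from RefSeq (GRCm38.p6) for the 5 genes matched, which are Cd8a, Cd5, Ctla4, Foxp3 and Tigit. The 3 windows shown belong to checkpoint and regulatory genes that the results turn on, and are shown for the motifs they hold or lack. Capitals mark matches, on either strand, to the interferon-stimulated response element core GAAANNGAAA, to the STAT element TTCNNNGAA or to the RUNX element TGTGGT, and no match overlapped another. The Ctla4 window (chr1:60908775-60909074, plus strand) held none of the 3 motifs.
Ctla4: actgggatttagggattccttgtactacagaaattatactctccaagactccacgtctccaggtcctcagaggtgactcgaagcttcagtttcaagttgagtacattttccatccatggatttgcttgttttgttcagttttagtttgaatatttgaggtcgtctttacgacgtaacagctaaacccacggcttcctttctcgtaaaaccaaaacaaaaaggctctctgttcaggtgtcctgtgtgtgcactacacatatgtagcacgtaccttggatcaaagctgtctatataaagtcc
The Tigit window (chr16:43664135-43664434, minus strand) held a RUNX match, read as ACCACA, from -140 to -135 relative to the start.
Tigit: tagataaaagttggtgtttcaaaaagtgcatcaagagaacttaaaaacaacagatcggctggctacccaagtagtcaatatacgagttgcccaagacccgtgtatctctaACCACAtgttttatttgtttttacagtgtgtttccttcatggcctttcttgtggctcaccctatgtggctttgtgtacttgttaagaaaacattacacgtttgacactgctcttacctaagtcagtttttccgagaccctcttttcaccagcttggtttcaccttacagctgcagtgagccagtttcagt
The Foxp3 window shown here is the second of those matched to this gene (chrX:7580233-7580532, plus strand), and it held a STAT match, TTCCAAGAA, from -139 to -131.
Foxp3: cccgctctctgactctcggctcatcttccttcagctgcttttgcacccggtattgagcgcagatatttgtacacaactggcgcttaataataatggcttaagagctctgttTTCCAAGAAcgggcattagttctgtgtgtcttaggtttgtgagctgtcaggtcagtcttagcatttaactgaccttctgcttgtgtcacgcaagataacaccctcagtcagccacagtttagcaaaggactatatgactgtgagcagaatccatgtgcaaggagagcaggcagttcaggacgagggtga
The response element core was in 0 of the 6 windows of these genes and in 3.44% of 32851 mouse promoter windows, the STAT element in 1 of 6 and 8.3%, and the RUNX element in 1 of 6 and 16.8%. A match is a description of letters in a window, and 0 matches say only that these letters are not in it.

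All 10 genes had a lower estimate in both knockouts than in WT, and the coreceptor Cd4 and the checkpoint genes Ctla4, Lag3 and Tigit fell in each. The WT mice are shared by both comparisons, so these are not independent of each other. In Tlr7 KO, 6 of the 10 genes fell, namely Cd4, Ctla4, Lag3, Tigit, Cd28 and Thy1, where 17.4% of all genes tested were called lower (adjusted p under 0.05, edgeR quasi-likelihood test, Benjamini-Hochberg adjustment). Their log2 fold changes had a median of -1.60, beside -0.04 for all genes tested. In Ifnar1 KO, 7 of the 10 genes fell, the same 6 and Cd5, where 12.4% of all genes were called lower, and the median was -2.55 beside -0.02 for all genes. Groups did not overlap for 2 of the 10 genes in Tlr7 KO (Ctla4 and Lag3), against 14.5% of all genes with every Tlr7 KO mouse below every WT mouse. For Lag3 this rested on 1.78 CPM in Tlr7 KO 2 against 1.79 in WT 2, and the groups overlapped (2.39 and 2.18 CPM) in the second table deposited for these mice, which holds whole-number counts of 39017 genes. In Ifnar1 KO the same 7 genes that fell had no overlap with WT, against 21.2% of all genes, although in the second table Cd28 overlapped (1.41 CPM in Ifnar1 KO 2 and 1.16 in WT 2). Fewer T cells and less RNA of these genes per T cell cannot be told apart in bulk tissue.

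**Figure D1:**
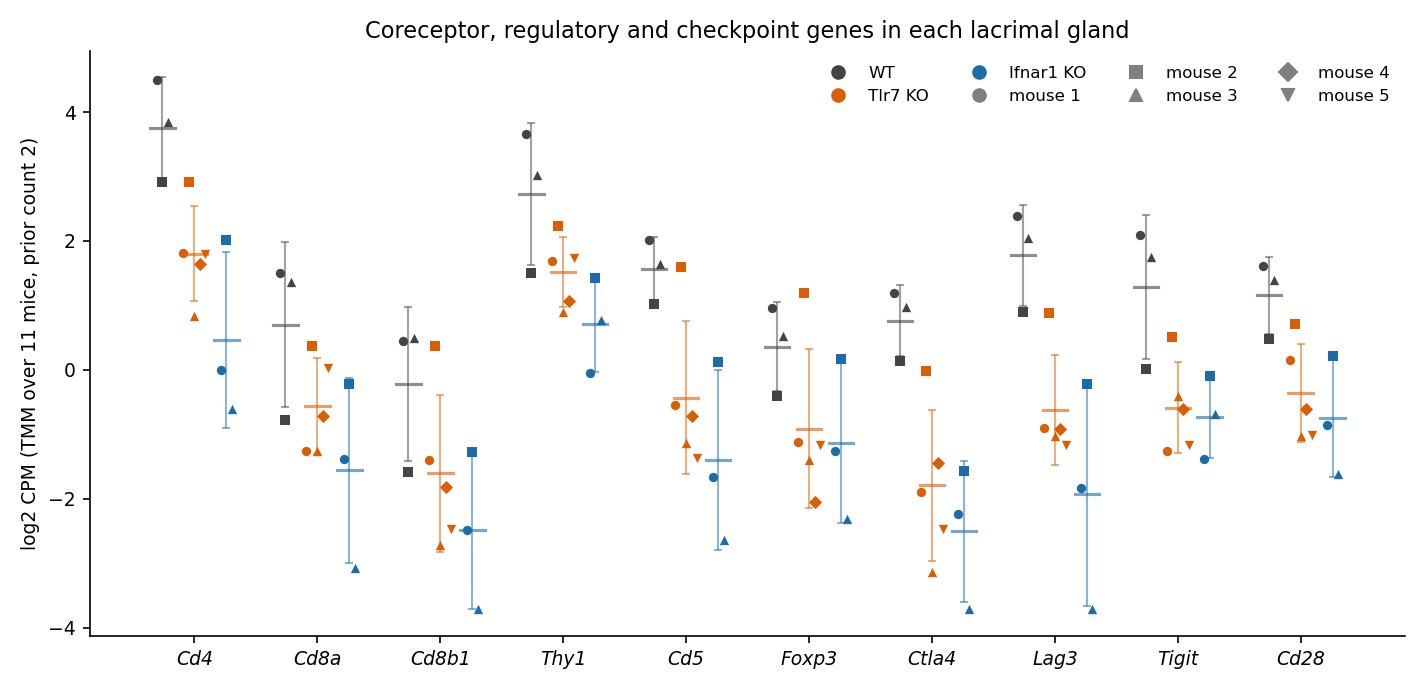
Level of each gene in each gland on the log2 CPM scale (vertical axis, TMM over all 11 mice, prior count 2), with genes on the horizontal axis, colours for genotype and symbols for the mouse number within a genotype. Horizontal lines are group means and bars are 1 SD. Mouse 2 (squares) is the lowest WT mouse and the highest mouse of each knockout group for all 10 genes.

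The same libraries stood apart for every gene. WT 2 had the lowest CPM among WT for 10 of 10 genes, with a median over genes of 39.9% of the mean of the other WT mice. Tlr7 KO 2 was the highest of its group for 10 of 10 genes (median 345% of the other Tlr7 KO mice), as was Ifnar1 KO 2 (median 449%). Summed over the 10 genes, WT 2 had 18.7 CPM and Tlr7 KO 2 had 25.3 CPM, so these libraries crossed, while the other WT mice had 42.3 and 59.4 CPM. Libraries that share a number share nothing else in the labels.

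The calls moved with single mice, as the plot of calls with each mouse left out shows. In the WT and Tlr7 KO comparison, 10 of 10 genes fell without Tlr7 KO 2, where 16.9% of all genes were called lower, and 8 without WT 2, where the share was 25.6%. The count was 2 without WT 1 (10.6% of all genes) or without WT 3 (10.2%), and 4 without any 1 of Tlr7 KO 1, 3, 4 and 5 (12.5% to 14.8%). Calls over the whole table thus rose and fell with the WT mice too, whereas without Tlr7 KO 2 their share stayed near the 17.4% of all mice. Cd4 and Lag3 were called in all 8 of these fits. In the WT and Ifnar1 KO comparison, 9 genes fell without WT 2 (20.8% of all genes) and 5 without Ifnar1 KO 2 (8.26%). The count was 0 in edgeR without mouse 1 or 3 of either group. In these 4 fits, 7 or 8 of the 10 had an unadjusted p under 0.05, as did 27.1% to 31.4% of all genes in the same fits and 37.6% with all mice. Without Ifnar1 KO 1 or Ifnar1 KO 3, 0 genes of the whole table were called lower, so the loss was not particular to these genes. The sizes moved as well, most without mouse 2 of a knockout. Over the 10 genes the median log2 fold change was -2.40 without Tlr7 KO 2 and -3.74 without Ifnar1 KO 2.

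**Figure D2:**
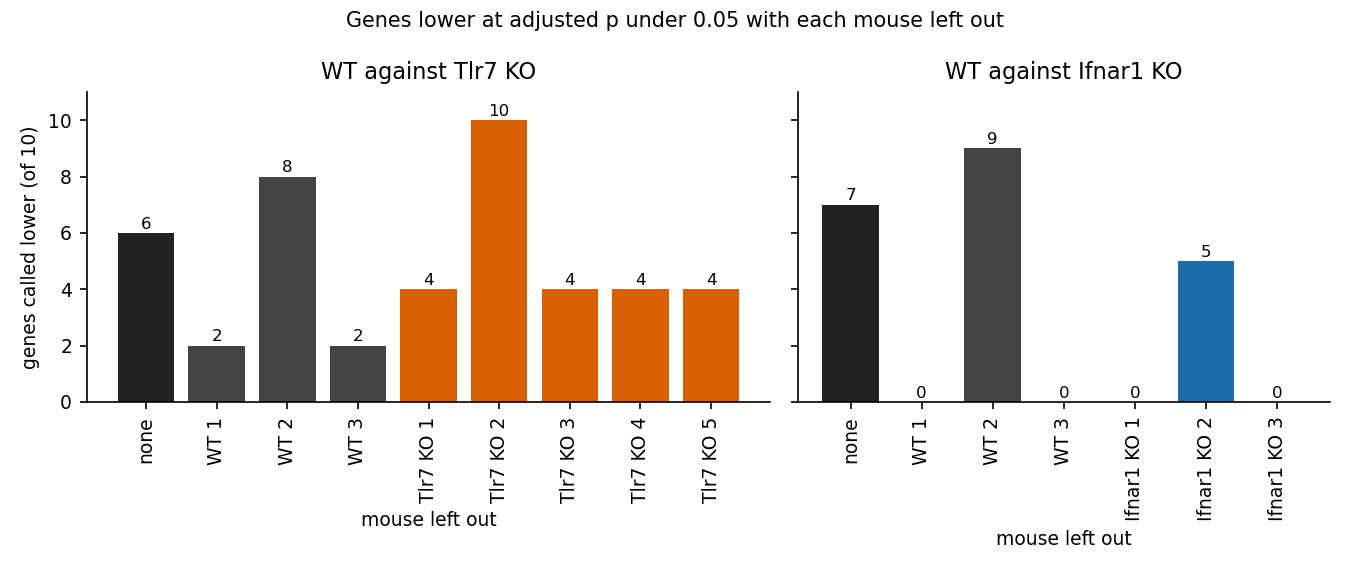
Number of the 10 genes lower at adjusted p under 0.05 (vertical axis, edgeR) with all mice (black) or with the mouse on the horizontal axis left out, for WT against Tlr7 KO and WT against Ifnar1 KO. The count ranges from 2 to 10 on the left and from 0 to 9 on the right.

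Cd4, the coreceptor of helper and regulatory T cells, had the highest mean of the 10 per length in WT, at 3.65 ± 1.85 CPM per kb (SD, n = 3), although in WT 3 Tigit was just above it (3.57 and 3.53 CPM per kb). The WT glands had 22.4, 7.5 and 14.2 CPM. The Tlr7 KO glands had 3.45, 7.5, 1.71, 3.06 and 3.41 CPM, and the Ifnar1 KO glands 0.922, 3.96 and 0.585 CPM. Every knockout gland but Tlr7 KO 2, which equalled WT 2 at this precision, was below every WT gland. Cd4 fell 3.87-fold in Tlr7 KO (log2 fold change -1.95, SE 0.439, adjusted p = 0.00997) and 8.23-fold in Ifnar1 KO (-3.04, SE 0.703, adjusted p = 0.0295). Its call in Tlr7 KO held with any mouse left out (adjusted p from 0.00193 to 0.0465). Its call in Ifnar1 KO was lost without mouse 1 or 3 of either group (adjusted p up to 0.104), and without Ifnar1 KO 2 the estimate was -4.29.

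Cd8a and Cd8b1 encode the α and β chains of CD8, the coreceptor of cytotoxic T cells. Cd8a is also made by some dendritic cells, whereas the heterodimer with the β chain marks conventional CD8 T cells. Cd8a was at 2.78, 0.511 and 2.52 CPM in the WT glands. The Tlr7 KO glands had 0.345, 1.21, 0.342, 0.537 and 0.944 CPM, and the Ifnar1 KO glands 0.307, 0.785 and 0.0418 CPM. WT 2 lay inside the range of both knockout groups, while WT 1 and WT 3 lay above every knockout gland. Cd8a did not pass the test in Tlr7 KO (log2 fold change -1.55, SE 0.565, adjusted p = 0.0605) or in Ifnar1 KO (-2.38, SE 0.863, adjusted p = 0.0902), where it had -3.42 without Ifnar1 KO 2 (adjusted p = 0.0711). Without WT 2 it was called in both (adjusted p = 0.00479 and 0.0228), and without Tlr7 KO 2 in Tlr7 KO (adjusted p = 0.0396). With all mice, Cd8a was called in both by DESeq2 (adjusted p = 0.0397 and 0.0358), in Tlr7 KO with scaling by library size only (adjusted p = 0.0174), and in Ifnar1 KO in the fit of all 11 mice (adjusted p = 0.0361). In the second table it passed in neither (adjusted p = 0.107 and 0.178).

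Cd8b1 had 1.29, 0.256 and 1.34 CPM in WT. It had 0.306, 1.21, 0.0759, 0.207 and 0.105 CPM in Tlr7 KO, and 0.102, 0.336 and 0 CPM in Ifnar1 KO. The 0 is a count of 0 in Ifnar1 KO 3, which allows up to 0.125 CPM. Cd8b1 did not pass the test in either knockout (log2 fold change -1.35, SE 0.8, adjusted p = 0.22 in Tlr7 KO, and -2.71, SE 0.954, adjusted p = 0.0831 in Ifnar1 KO). Tlr7 KO 2, with 28 counts where the rest of its group had between 2 and 8, was close to WT 1 and WT 3, and without it Cd8b1 was called (-2.45, adjusted p = 0.0229). In Ifnar1 KO it had -4.07 without Ifnar1 KO 2 (adjusted p = 0.0683). Without WT 2 the Ifnar1 KO difference was called (adjusted p = 0.0236), as it was by DESeq2 with all mice (-2.73, adjusted p = 0.0417).

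**Figure D3:**
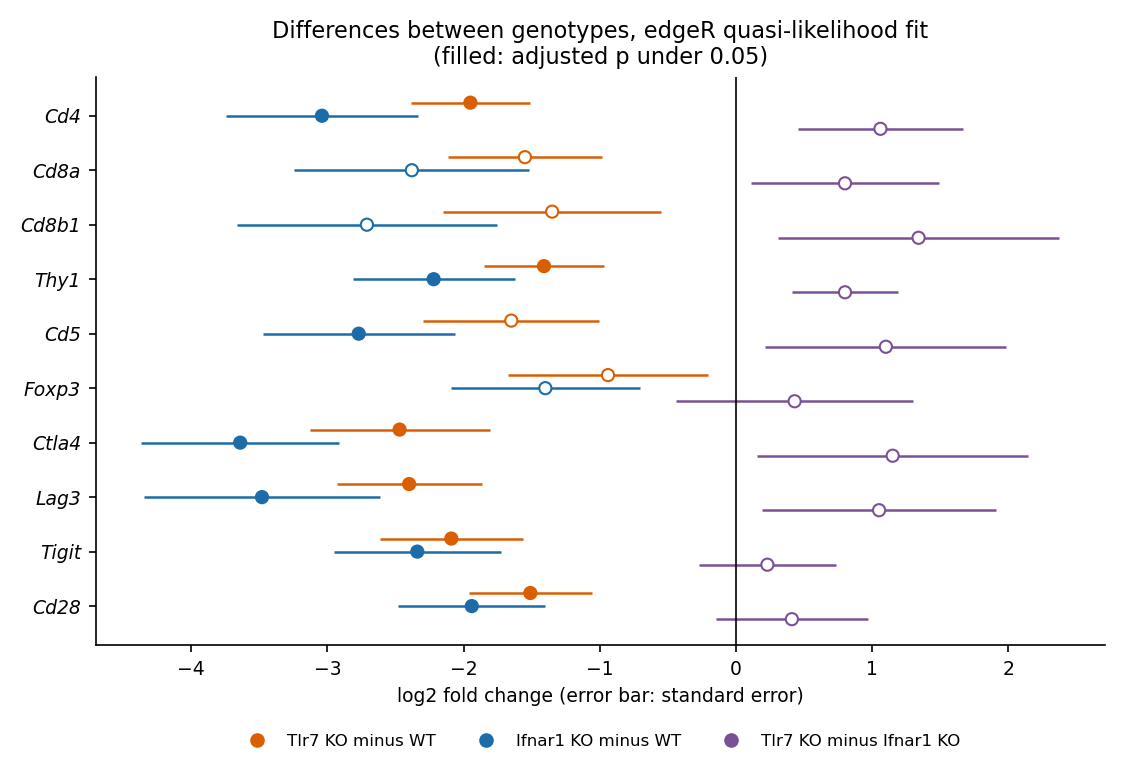
Log2 fold change (horizontal axis) for each gene (vertical axis) in the 3 comparisons, from edgeR's quasi-likelihood fits. Bars are standard errors derived from the log2 fold change and its F statistic. Filled points passed an adjusted p under 0.05. This held for 6 of 10 in Tlr7 KO against WT, 7 of 10 in Ifnar1 KO against WT, and 0 of 10 between the knockouts.

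Thy1 and Cd5 are surface genes found on nearly all mouse T cells, and Thy1 is also made by fibroblasts, neurons and other cells. Thy1 had 12.6, 2.77 and 8.01 CPM in WT. It had 3.14, 4.64, 1.78, 2.02 and 3.25 CPM in Tlr7 KO, and 0.888, 2.62 and 1.63 CPM in Ifnar1 KO. WT 2 was below 3 of the 5 Tlr7 KO glands and just above Ifnar1 KO 2. Thy1 fell 2.65-fold in Tlr7 KO (log2 fold change -1.41, SE 0.44, adjusted p = 0.036) and 4.67-fold in Ifnar1 KO (-2.22, SE 0.594, adjusted p = 0.0412). The Tlr7 KO call was lost when any mouse other than WT 2 or Tlr7 KO 2 was left out (adjusted p up to 0.185), and with robust dispersion estimates (adjusted p = 0.0529). The Ifnar1 KO call was lost when any mouse other than WT 2 was left out (adjusted p up to 0.128). Fibroblast markers, which bear on Thy1, fell for 2 of 6 genes in each knockout (Dcn and Pdgfra; in Ifnar1 KO 4 of 6 without WT 2 and 0 of 6 without Ifnar1 KO 2), with a summed level of 75.7 to 167 CPM in WT, 92.5 to 165 in Tlr7 KO and 83.6 to 116 in Ifnar1 KO, and their part in the change of Thy1 was not tested.

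Cd5, which tunes T cell receptor signalling and is also made by a subset of B cells, had 3.97, 1.96 and 3.06 CPM in WT. It had 0.613, 2.95, 0.38, 0.537 and 0.315 CPM in Tlr7 KO, and 0.239, 1.01 and 0.0836 CPM in Ifnar1 KO. All Tlr7 KO glands but Tlr7 KO 2 were below 1 CPM, and all Ifnar1 KO glands were below WT. Cd5 fell 6.82-fold in Ifnar1 KO (log2 fold change -2.77, SE 0.704, adjusted p = 0.0367), a call lost without mouse 1 or 3 of either group (adjusted p up to 0.121), and without Ifnar1 KO 2 the estimate was -4.16. In Tlr7 KO it did not pass (-1.65, SE 0.646, adjusted p = 0.0771), but it did without Tlr7 KO 2 (-2.68, adjusted p = 0.00175) and without WT 2 (-1.88, adjusted p = 0.0484). With all mice it was also called in Tlr7 KO by DESeq2 (adjusted p = 0.0468), in the second table (-1.76, adjusted p = 0.0357) and with scaling by library size only (-2.18, adjusted p = 0.0271). B cell markers, which bear on Cd5, fell for 8 of 8 genes in each knockout, with a summed level of 77.7 to 267 CPM in WT, 6.53 to 48 in Tlr7 KO and 2.59 to 19.8 in Ifnar1 KO. Their part in the level of Cd5 was not tested.

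With all mice in the fit, Foxp3 had the smallest log2 fold change of the 10 in each knockout, and it did not pass the test in either. In WT it was at 1.87, 0.681 and 1.37 CPM, from 55, 16 and 50 counts. The Tlr7 KO glands had 0.383, 2.21, 0.304, 0.165 and 0.367 CPM, and the Ifnar1 KO glands 0.341, 1.05 and 0.125 CPM. Tlr7 KO 2 had the highest Foxp3 of all 11 mice, while its 4 group mates were below every WT gland. The log2 fold change was -0.94 in Tlr7 KO (SE 0.734, adjusted p = 0.35) and -1.40 in Ifnar1 KO (SE 0.695, adjusted p = 0.184). Without Tlr7 KO 2 it was -2.10 and was called (SE 0.433, adjusted p = 0.00893), and it was then no longer the smallest, since Thy1 had -1.63 and Cd8a and Cd28 had -1.89 each. In Ifnar1 KO it did not pass in any of the 6 fits that left out a mouse (adjusted p from 0.0591 to 0.423), and it had -2.46 without Ifnar1 KO 2.

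Ctla4, the inhibitory receptor for CD80 and CD86, had the largest log2 fold change of the 10 in each knockout when all mice of the main table were fitted. The WT glands had 2.2, 1.02 and 1.89 CPM, from 65, 24 and 69 counts. The Tlr7 KO glands had 0.191, 0.91, 0.038, 0.289 and 0.105 CPM, and the Ifnar1 KO glands 0.137, 0.262 and 0 CPM. Every knockout gland was below every WT gland, and Ifnar1 KO 3 had 0 counts. Ctla4 fell 5.55-fold in Tlr7 KO (log2 fold change -2.47, SE 0.661, adjusted p = 0.0199) and 12.5-fold in Ifnar1 KO (-3.64, SE 0.725, adjusted p = 0.0235). The call was lost without WT 1, WT 3 or Tlr7 KO 1 in Tlr7 KO (adjusted p up to 0.0707). In Ifnar1 KO it was lost without mouse 1 or 3 of either group (adjusted p up to 0.0858). The Tlr7 KO estimate was -3.42 without Tlr7 KO 2. The Ifnar1 KO estimate was -4.49 without Ifnar1 KO 2, where Lag3 had -5.03. Ctla4 was also not the largest in Tlr7 KO in the second table (-2.30, beside -3.23 for Tigit and -2.33 for Lag3) or without Tlr7 KO 3 (-2.17, beside -2.26 for Lag3), nor in Ifnar1 KO with the replicate number as a block (-3.71, beside -3.75 for Lag3).

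Cd28, the costimulatory partner of Ctla4, changed less by estimate. The WT glands had 2.99, 1.32 and 2.54 CPM. The Tlr7 KO glands had 1.03, 1.56, 0.418, 0.578 and 0.419 CPM, and the Ifnar1 KO glands 0.478, 1.08 and 0.251 CPM. WT 2 was below Tlr7 KO 2 and above the remaining knockout glands. Cd28 fell 2.85-fold in Tlr7 KO (log2 fold change -1.51, SE 0.449, adjusted p = 0.0299) and 3.84-fold in Ifnar1 KO (-1.94, SE 0.541, adjusted p = 0.0453). The call was lost without WT 1, WT 3, Tlr7 KO 3, Tlr7 KO 4 or Tlr7 KO 5 in Tlr7 KO (adjusted p up to 0.112), and in the second table (-1.35, adjusted p = 0.0537). It was lost without mouse 1 or 3 of either group in Ifnar1 KO (adjusted p up to 0.143), in the second table (-2.02, adjusted p = 0.0761) and with scaling by library size only (-2.30, adjusted p = 0.0543), and without Ifnar1 KO 2 the estimate was -2.64.

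Lag3, which encodes the class II MHC receptor next to Cd4, had 5.16, 1.79 and 4.05 CPM in WT. It had 0.459, 1.78, 0.418, 0.454 and 0.367 CPM in Tlr7 KO, and 0.205, 0.785 and 0 CPM in Ifnar1 KO. The gap between WT 2 and Tlr7 KO 2 was small, and the remaining knockout glands were below 1 CPM. Lag3 fell 5.28-fold in Tlr7 KO (log2 fold change -2.40, SE 0.532, adjusted p = 0.00943), a call that held with any mouse left out (adjusted p from 0.00169 to 0.0398), with an estimate of -3.10 without Tlr7 KO 2. It fell 11.1-fold in Ifnar1 KO (-3.48, SE 0.864, adjusted p = 0.0346), a call lost without mouse 1 or 3 of either group (adjusted p up to 0.12). Without Ifnar1 KO 2 the estimate was -5.03, and without Ifnar1 KO 3, the gland at 0 counts, it was -2.94. Lag3 is also made by activated B cells and NK cells, and both marker lists fell with it (8 of 8 B cell genes in each knockout, 4 of 6 and 6 of 6 NK cell genes), a part in the result that was not tested.

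Tigit, a receptor for the poliovirus receptor family that is frequent on regulatory and exhausted T cells and on NK cells, had 4.21, 0.937 and 3.28 CPM in WT. It had 0.345, 1.34, 0.683, 0.578 and 0.367 CPM in Tlr7 KO, and 0.307, 0.86 and 0.543 CPM in Ifnar1 KO. WT 2 was below Tlr7 KO 2 and just above Ifnar1 KO 2. In the second table WT 2 was just above Tlr7 KO 2 (1.09 and 1.04 CPM), so that WT and Tlr7 KO did not overlap there. Tigit fell 4.24-fold in Tlr7 KO (log2 fold change -2.09, SE 0.523, adjusted p = 0.0153), a call lost without WT 1 or WT 3 (adjusted p up to 0.0689). It fell 5.05-fold in Ifnar1 KO (-2.34, SE 0.614, adjusted p = 0.0394), a call lost when any mouse other than WT 2 was left out (adjusted p up to 0.124). The deposited tables differed for this gene. Tlr7 KO 3 and Tlr7 KO 4 had 18 and 14 estimated counts in the main table and 1 and 0 counts in the second, and the second table gave Tigit -3.23 in Tlr7 KO (adjusted p = 0.00997), with -2.80 for Ifnar1 KO (adjusted p = 0.0348).

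The knockouts were next compared with each other, on values of the knockout mice, for the genes that passed the count filter in WT. With a filter on the knockout mice themselves (edgeR's filterByExpr), 7 of the 10 genes were left, without Cd8b1, Foxp3 and Ctla4, and 0 of the 7 were called. Few genes were called in that fit at all, 119 lower and 144 higher of 13178 tested. All 10 genes had a higher estimate in Tlr7 KO than in Ifnar1 KO, with a median log2 fold change of 0.93, and 0 of the 10 passed the test with all mice and no block, where 1.79% of all genes were called in either direction. At an unadjusted p under 0.05, 0 of the 10 passed in edgeR, where 16.3% of all genes did. DESeq2 had 1 of the 10 at that level (14.1% of all genes) and called 0 after adjustment, where 247 of 13937 genes were called lower and 330 higher. Without Ifnar1 KO 2 the edgeR count was 5 of 10 (21.8% of all genes). It was 8 of 10 (15.3%) with the replicate number as a block, of which 2, Cd4 and Cd5, were also called after adjustment. The values ran from 0.23 for Tigit (SE 0.501, adjusted p = 0.855) to 1.34 for Cd8b1 (SE 1.03, adjusted p = 0.554), and all 10 genes overlapped between the groups. Cd4 had 1.06 (SE 0.608, adjusted p = 0.417), and without Ifnar1 KO 2 it had 2.33 and was called (adjusted p = 0.0378). That fit called 518 genes of the whole table higher and 359 lower, against 129 and 121 with all mice. The median over the 10 genes was 0.22 without Tlr7 KO 2 and 1.92 without Ifnar1 KO 2, so its size rested on single mice. The direction was not shared by every fit for Foxp3 and Tigit. Foxp3 had -0.73 without Tlr7 KO 2 (adjusted p = 0.65) and -0.01 without Ifnar1 KO 3 (adjusted p = 0.998), beside 0.43 with all mice. Tigit had -0.19 without Tlr7 KO 2 (adjusted p = 0.88), -0.08 without Ifnar1 KO 1 (adjusted p = 0.967) and -0.43 in the second table (adjusted p = 0.866).

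Changes in proportion to the T cell receptor complex were asked next, by subtracting the mean log2 CPM of Cd3d, Cd3e and Cd3g in the same gland. These CD3 genes, present in all T cells, fell in both knockouts (log2 fold change from -1.71 to -2.08 in Tlr7 KO and from -2.48 to -3.25 in Ifnar1 KO). Relative to CD3, 0 of the 10 genes differed between any of the groups after adjustment over the 10 (exact permutation test, two-sided), in designs whose smallest p is 0.0179 for 3 against 5 mice and 0.1 for 3 against 3. In Ifnar1 KO against WT no adjusted p could therefore pass. With 3 against 5 mice a single gene at the smallest p could not pass either, since several of the 10 had to be at or near it together. The count of 0 therefore cannot show that the genes kept their proportion to CD3. Foxp3 relative to CD3 was 1.47 higher on the log2 scale in Ifnar1 KO than in WT, with no overlap (exact permutation p = 0.1, adjusted p = 0.167). Cd28 was 1.06 higher and Tigit 0.96, and Lag3 was 0.73 lower (a difference of -0.73), each without overlap and with the same p. Cd8a and Cd8b1 had 0.70 and 0.69, but Ifnar1 KO 3 had 1 and 0 counts of these genes, so that its ratios were set by the prior count of 2, and with a prior count of 0.5 the differences were 0.53 and 0.08. The Lag3 difference, where Ifnar1 KO 3 had 0 counts, ran from -1.32 with a prior count of 0.5 to -0.39 with 5. The Tigit difference rested on Ifnar1 KO 3, which stood at 1.40 relative to CD3 where the other Ifnar1 KO glands had -0.69 and -0.73 and WT had -0.75, -1.19 and -0.96. Without that gland it was 0.25, and in the second table, where that gland had 2 Tigit counts in place of 13, it was 0.37. The prior count of 2 draws low values together, which bears on every gene with few counts here. Relative to CD3, Cd4 differed by -0.10 in Tlr7 KO (exact permutation p = 0.5) and -0.31 in Ifnar1 KO (exact permutation p = 0.5). The smallest p in Tlr7 KO was shared by Ctla4 (-0.72), Lag3 (-0.56) and Thy1 (0.64), each with overlap (exact permutation p = 0.0714, adjusted p = 0.238). Ctla4 relative to CD3 differed by only -0.30 in Ifnar1 KO, with overlap (exact permutation p = 0.6).

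Counts of Foxp3 were set against those of Cd4, the coreceptor that regulatory T cells carry. The ratio is one of counts, not of cells, and it carries the overlap of Foxp3 exons named above. The WT glands had 8.33, 9.09 and 9.62 Foxp3 counts per 100 Cd4 counts. The Ifnar1 KO glands had 37, 26.4 and 21.4, from 10, 28 and 3 Foxp3 counts, and the Tlr7 KO glands 11.1, 29.5, 17.8, 5.41 and 10.8. The WT glands lay close together, every Ifnar1 KO gland was above them, and the Tlr7 KO glands lay on both sides. The difference on the log2 scale was 1.78 in Ifnar1 KO (exact permutation p = 0.1, the smallest possible, adjusted p = 0.25 over 5 pairs) and 0.67 in Tlr7 KO (exact permutation p = 0.196, adjusted p = 0.246). As a share of both genes' counts, WT 1 had 7.69% (95% exact binomial interval 5.85 to 9.9), Ifnar1 KO 1 27% (13.8 to 44.1) and Ifnar1 KO 3 17.6% (3.8 to 43.4). In the second table Ifnar1 KO 3 had 0 Foxp3 counts beside 11 Cd4 counts, so that the groups overlapped there.

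**Figure D4:**
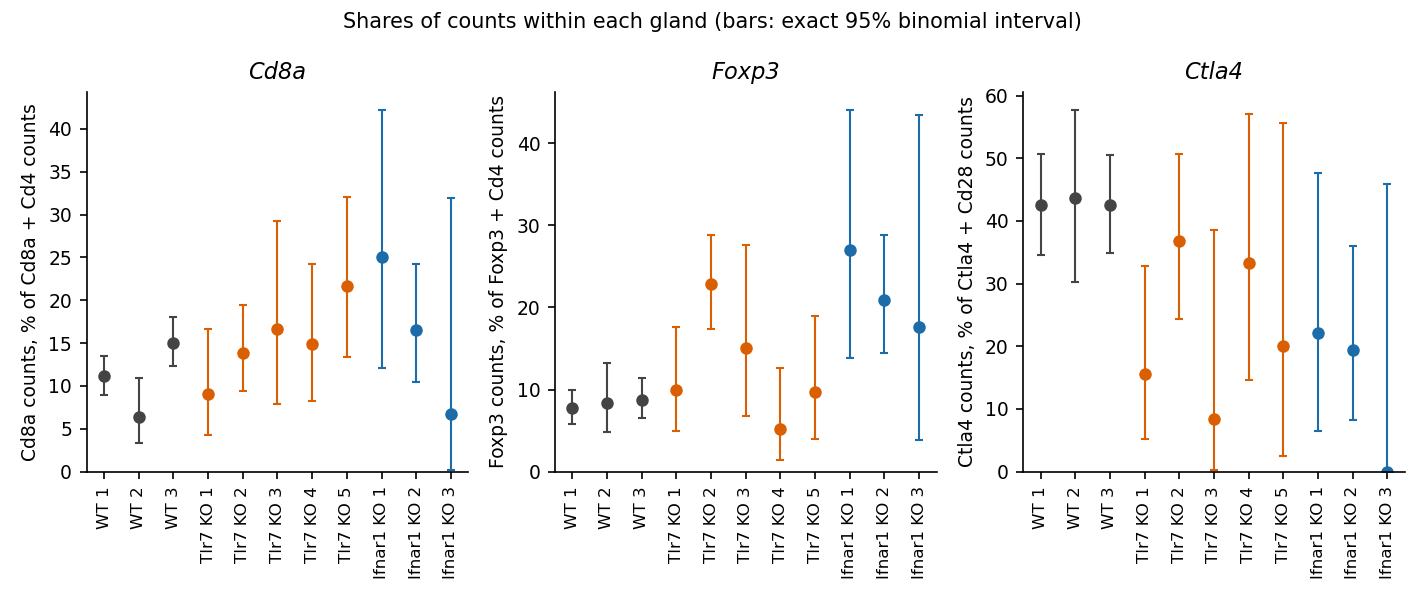
Share of counts in each gland (vertical axes, %) for Cd8a of Cd8a and Cd4, Foxp3 of Foxp3 and Cd4, and Ctla4 of Ctla4 and Cd28, with exact 95% binomial intervals that cover counting error only. In the main table the WT glands hold Foxp3 between 7.69% and 8.77% and Ctla4 between 42.5% and 43.6%, and the knockout glands spread more widely.

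Ctla4 and Cd28 share ligands and a locus. In WT there were 73.9, 77.4 and 74.2 Ctla4 counts per 100 Cd28 counts. The Tlr7 KO glands had 18.5, 58.3, 9.09, 50 and 25, and the Ifnar1 KO glands 28.6, 24.1 and 0. All 8 knockout glands were below all 3 WT glands, from few counts (between 0 and 21 of Ctla4). The difference on the log2 scale was -1.04 in Tlr7 KO (exact permutation p = 0.0357, adjusted p = 0.179 over 5 pairs) and -1.36 in Ifnar1 KO (exact permutation p = 0.1, adjusted p = 0.25). In the second table Tlr7 KO 2 had 73.1 and WT 3 had 69.2, so that the groups overlapped in Tlr7 KO. The WT glands also lay less close together there, from 69.2 to 125 (WT 2). As a share of both genes' counts this was 40.9% to 55.6%.

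Ctla4 against Foxp3, a pair chosen after the counts were seen, was at 118, 150 and 138 per 100 Foxp3 counts in WT. It was at 50, 41.2, 12.5, 175 and 28.6 in Tlr7 KO and at 40, 25 and 0 in Ifnar1 KO. Tlr7 KO 4 was above WT from 7 and 4 counts, and the remaining 7 knockout glands were below. On the log2 scale the difference from WT was -1.29 for Tlr7 KO and -1.77 for Ifnar1 KO, given as a description because of how the pair was chosen.

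The balance of Cd8a to Cd4, of Cd8b1 to Cd8a and of Lag3 to Cd4 overlapped between all groups on the log2 scale. Cd8a had between 6.82 and 17.7 counts per 100 Cd4 counts in WT, between 10 and 27.7 in Tlr7 KO and between 7.14 and 33.3 in Ifnar1 KO. Cd8b1 had between 46.3 and 53.3 per 100 Cd8a counts in WT and between 11.1 and 100 in Tlr7 KO, where Tlr7 KO 2 had 28 counts of each. The Ifnar1 KO glands had 33.3, 42.9 and 0 Cd8b1 per 100 Cd8a counts, all below WT by counts alone, from 3, 9 and 0 counts of Cd8b1, whereas in the second table Ifnar1 KO 3 had 0 counts of both genes, and the remaining glands had 50 and 22.2, from 2 and 4 counts of Cd8b1, beside 37.3 to 75 in WT. Lag3 had between 23 and 28.5 per 100 Cd4 counts in WT, between 10.8 and 24.4 in Tlr7 KO and between 0 and 22.2 in Ifnar1 KO, and by counts alone every Ifnar1 KO gland lay below WT for this pair too. In the second table Ifnar1 KO 1 had 31.6 Lag3 per 100 Cd4 counts, above every WT gland (22 to 25.6). Over the 5 pairs fixed for this comparison and the 3 pairs of groups, 0 passed after adjustment. In Ifnar1 KO against WT none could pass, as the smallest possible p is 0.1. For 3 against 5 mice it is 0.0179, so a single pair at that p could not pass either after adjustment over 5. The count of 0 therefore cannot show that the ratios were alike.

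Per length the order in WT was Cd4 (3.65 ± 1.85 CPM per kb), Tigit (3.06 ± 1.83), Thy1 (2.6 ± 1.64) and Lag3 (1.74 ± 0.814), followed by Ctla4 (0.732 ± 0.263), Cd8b1 (0.648 ± 0.413), Cd5 (0.608 ± 0.204), Cd8a (0.532 ± 0.341), Cd28 (0.373 ± 0.141) and Foxp3 (0.285 ± 0.13). Neighbours in this order differed by less than the larger of their SDs, apart from Lag3 and Ctla4, which differed by more than the SD of either. In Tlr7 KO, Thy1 (0.991 ± 0.38) and Cd4 (0.948 ± 0.539) had the highest means, and in Ifnar1 KO, Tigit (0.62 ± 0.302), Thy1 (0.571 ± 0.29) and Cd4 (0.452 ± 0.461). These orders are those of the main table. Tigit in Ifnar1 KO 3 had 13 counts there and 2 in the second table, which bears on its first place. By group mean, Ctla4 was in the fifth place in WT and in the last in Ifnar1 KO, at 0.057 ± 0.0562 CPM per kb, which is within the SD of the next gene, Cd5 (0.0901 ± 0.101). In single Ifnar1 KO glands Ctla4 was last in mouse 2, above Cd5 in mouse 1, and at 0 with Cd8b1 and Lag3 in mouse 3.

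The profiles of the 10 genes over the 11 mice were compared by their distances. With each gene's log2 CPM centred on its mean, the root mean square difference was smallest between Lag3 and Cd5 (0.42) and largest between Lag3 and Thy1 (1.02). The largest rests in good part on Ifnar1 KO 3. There Lag3 had 0 counts (log2 CPM -3.71, set by the prior count) and Thy1 had 39 (0.77). Counts of 10 or fewer in many knockout glands add counting error, so these distances cannot show that the profiles differ. Among 11489 other genes with at least 1 CPM on average, those most like Cd4 were Il2rg (0.23) and Vav1 (0.26), and those most like Lag3 were Rhoh (0.26) and Lck (0.28). For Cd28 they were Cd44 (0.25) and Gm20400 (0.27), for Thy1 Tmsb10 (0.26), for Cd8a Myo1g (0.30) and Gbp7 (0.34), and for Ctla4 Cyp4f18 (0.33) and Nxpe3 (0.38). For Cd5 they were Il2rb and Tnfrsf4 (0.36 each), for Tigit Tnfrsf13b (0.37) and Itgb3 (0.38), for Cd8b1 Inpp4b and Ptpn7 (0.42 each), and for Foxp3 Cd27 (0.47) and Slamf8 (0.48). All of these distances rest on the same 11 libraries and are descriptions.

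Other genes of T cells were examined from lists written from general knowledge. Their counts stand against the shares of all genes called lower, which were 17.4% in Tlr7 KO and 12.4% for Ifnar1 KO with all mice, 25.6% and 20.8% without WT 2, 16.9% in Tlr7 KO without Tlr7 KO 2, and 8.26% in Ifnar1 KO without Ifnar1 KO 2. Of the T cell receptor complex, 7 of 7 genes fell in each knockout, with medians on the log2 scale of -1.89 in Tlr7 KO and -3.23 in Ifnar1 KO, or -4.15 without Ifnar1 KO 2. In Tlr7 KO the smallest adjusted p was that of Cd3g (-2.08, adjusted p = 0.0103), and in Ifnar1 KO that of Trbc2 (-3.50, adjusted p = 0.0245, or -4.34 without Ifnar1 KO 2). Of 10 pan-T cell genes, 9 fell in Tlr7 KO (median -1.96) and 8 in Ifnar1 KO (median -2.98). In Ifnar1 KO this count was 6 of 10 without Ifnar1 KO 2 (median -3.94) and 10 of 10 without WT 2. By adjusted p the adhesion receptor gene Cd2 came first in Tlr7 KO (-2.78, adjusted p = 0.00934) and the adaptor gene Lat in Ifnar1 KO (-3.21, adjusted p = 0.023). Cd2 had -3.47 in Tlr7 KO without Tlr7 KO 2, and Lat had -3.91 in Ifnar1 KO without Ifnar1 KO 2.

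Of 16 other costimulatory and checkpoint receptor genes, 10 fell in Tlr7 KO (median -1.69) and 11 in Ifnar1 KO (median -2.60). Without WT 2 the counts were 14 of 15 in Tlr7 KO (25.6% of all genes) and 15 of 15 in Ifnar1 KO (20.8%). They were 12 of 16 in Tlr7 KO without Tlr7 KO 2 (16.9%) and 11 of 16 in Ifnar1 KO without Ifnar1 KO 2 (8.26%). Pdcd1, which encodes the inhibitory receptor PD-1, had 8.92, 3.36 and 5.85 CPM in WT and between 0.167 and 1.3 CPM in all knockout glands. It fell by 3.09 on the log2 scale in Tlr7 KO (adjusted p = 0.00208) and by 3.43 in Ifnar1 KO (adjusted p = 0.0229). Its Ifnar1 KO estimate was -4.36 without Ifnar1 KO 2 (adjusted p = 0.0287). Btla, an inhibitory receptor of B and T cells, fell by 3.06 (adjusted p = 0.00214) and 3.88 (adjusted p = 0.0219). Cd226, the activating receptor that competes with TIGIT, had -0.21 for Tlr7 KO (adjusted p = 0.783), but -2.25 for Ifnar1 KO (adjusted p = 0.0667), with a difference between the knockouts of 2.02 that did not pass (adjusted p = 0.15). Without WT 2 the Ifnar1 KO value was called (-2.62, adjusted p = 0.0182) and the Tlr7 KO value was not (-0.57, adjusted p = 0.354).

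Of 12 other regulatory T cell genes tested, 4 fell in Tlr7 KO (Ikzf2, Nt5e, Entpd1 and Tnfrsf1b, median of the list -0.94) and 3 in Ifnar1 KO (Nt5e, Ccr8 and Tnfrsf1b, median -1.18), beside 17.4% and 12.4% of all genes. Nt5e, the ectonucleotidase CD73, had -1.18 (adjusted p = 0.0104) and -1.34 (adjusted p = 0.0423), the second not called without Ifnar1 KO 2 (adjusted p = 0.0623), and it is also made by stromal cells. The chemokine receptor gene Ccr8 had the smallest adjusted p of the list in Ifnar1 KO (-3.04, adjusted p = 0.0229), and in Tlr7 KO it was called without Tlr7 KO 2 (-4.16, adjusted p = 0.00446). Il2ra, the high-affinity IL-2 receptor chain, had -0.83 (adjusted p = 0.0817) and -1.48 (adjusted p = 0.056), and without WT 2 it was called in each (-1.13, adjusted p = 0.00733, and -1.78, adjusted p = 0.0106). Il10 and Ccr4 were under the count filter and were not tested. Without Tlr7 KO 2, 5 of these 12 genes were called lower in Tlr7 KO (16.9% of all genes). Without WT 2, 6 of the 11 genes then tested were called lower in Tlr7 KO (25.6% of all genes), while for Ifnar1 KO the count was 8 of 11 (20.8%), and without Ifnar1 KO 2 the count was 2 of 12 in Ifnar1 KO (8.26%).

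Of 12 transcription factor genes of T cell lineages, 9 fell in Tlr7 KO (median -1.65) and 7 in Ifnar1 KO (median -2.44, or -3.18 without Ifnar1 KO 2). Bach2 had the smallest adjusted p in Tlr7 KO (-1.55, adjusted p = 0.00143), though not the largest change. Bcl6, the factor of follicular helper T cells and germinal centre B cells, had the smallest adjusted p in Ifnar1 KO (-2.40, adjusted p = 0.00789), where Eomes had the largest change (-3.82, adjusted p = 0.0218). It had 27.7, 37.8 and 30.4 CPM in WT, between 31.4 and 55 in Tlr7 KO, and 6.28, 5.46 and 6.6 in Ifnar1 KO, so that the Ifnar1 KO glands stood below all others. It differed between the knockouts by 2.80 (adjusted p = 0.000371) and not between Tlr7 KO and WT by the test (0.41, adjusted p = 0.122). Zbtb7b, the CD4 lineage factor, had 0.18 (adjusted p = 0.208) and 0.31 (adjusted p = 0.144), and without WT 2 it was called higher in each (0.31, adjusted p = 0.00697, and 0.43, adjusted p = 0.0256). Runx3, the CD8 lineage factor, fell by 2.01 (adjusted p = 0.00298) and 2.47 (adjusted p = 0.0304). Bcl6 and Zbtb7b are made by many cells of the gland, and the list's summed level of 75.9 to 130 CPM over all groups rests in part on such genes.

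Ligands of CD4, CD8, LAG-3, CD28, CTLA-4 and TIGIT were also measured. Of 11 ligand genes tested, 8 fell in Tlr7 KO (median -1.32) and 6 in Ifnar1 KO (median -1.93, or -2.54 without Ifnar1 KO 2). CD4 and LAG-3 bind class II MHC molecules, and whether the product of each class II gene reached the cell surface in these glands was not measured. The class II genes H2-Aa, H2-Ab1 and H2-Eb1 had between -1.92 and -2.05 in Tlr7 KO and between -2.69 and -2.83 in Ifnar1 KO, and all 3 passed in each. The class I genes H2-K1, H2-D1 and B2m, whose products bind CD8, passed in each as well, from -0.96 to -1.70 and from -1.77 to -2.92, and H2-D1 had the smallest adjusted p of the ligands in Ifnar1 KO (adjusted p = 0.0225). With Ifnar1 KO 2 left out, the class II genes had between -3.38 and -3.51 in Ifnar1 KO. The class I genes then had between -2.10 and -3.80. Cd86, a ligand of CD28 and CTLA-4, fell in Tlr7 KO (-1.40, adjusted p = 0.0207) and did not pass in Ifnar1 KO (-0.52, adjusted p = 0.344), with a difference between the knockouts of -0.90 (adjusted p = 0.153). Without WT 2 Cd86 was called in Ifnar1 KO as well (-0.86, adjusted p = 0.014). Cd80 did not pass in either (-1.32, adjusted p = 0.168, and -1.93, adjusted p = 0.115), but it did in each without WT 2 (-1.75, adjusted p = 0.0408, and -2.35, adjusted p = 0.0235) and in Tlr7 KO without Tlr7 KO 2 (-2.06, adjusted p = 0.0374).

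Pvr, the poliovirus receptor bound by TIGIT and CD226, was the only one of the 11 ligand genes called between the knockouts with all mice. It had 12.2, 11.5 and 12 CPM in WT and 5.32, 6.63, 4.82, 5.12 and 5.45 CPM in Tlr7 KO. The Ifnar1 KO glands had 10.3, 8.86 and 10.2 CPM, between the other groups and without overlap with either. Pvr fell by 1.12 on the log2 scale in Tlr7 KO (adjusted p = 0.00063), had -0.30 in Ifnar1 KO (adjusted p = 0.117) and differed by -0.84 between the knockouts (adjusted p = 0.0102). Nectin2 and Nectin3, related genes of the same list, did not pass in either knockout (for Nectin2 0.18, adjusted p = 0.217, and 0.43, adjusted p = 0.0604, and for Nectin3 -0.98, adjusted p = 0.17, and -0.94, adjusted p = 0.259). Nectin2 had 25.8 to 35.4 CPM in WT, 30.5 to 37.6 in Tlr7 KO and 38.6 to 42.7 in Ifnar1 KO, so that the Ifnar1 KO glands were above all others. Without WT 2 it was called higher in each knockout (0.31, adjusted p = 0.0138, and 0.55, adjusted p = 0.012), and Nectin3 was called lower in Tlr7 KO (-1.34, adjusted p = 0.041). Tigit itself differed by 0.23 between the knockouts.

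**Figure D5:**
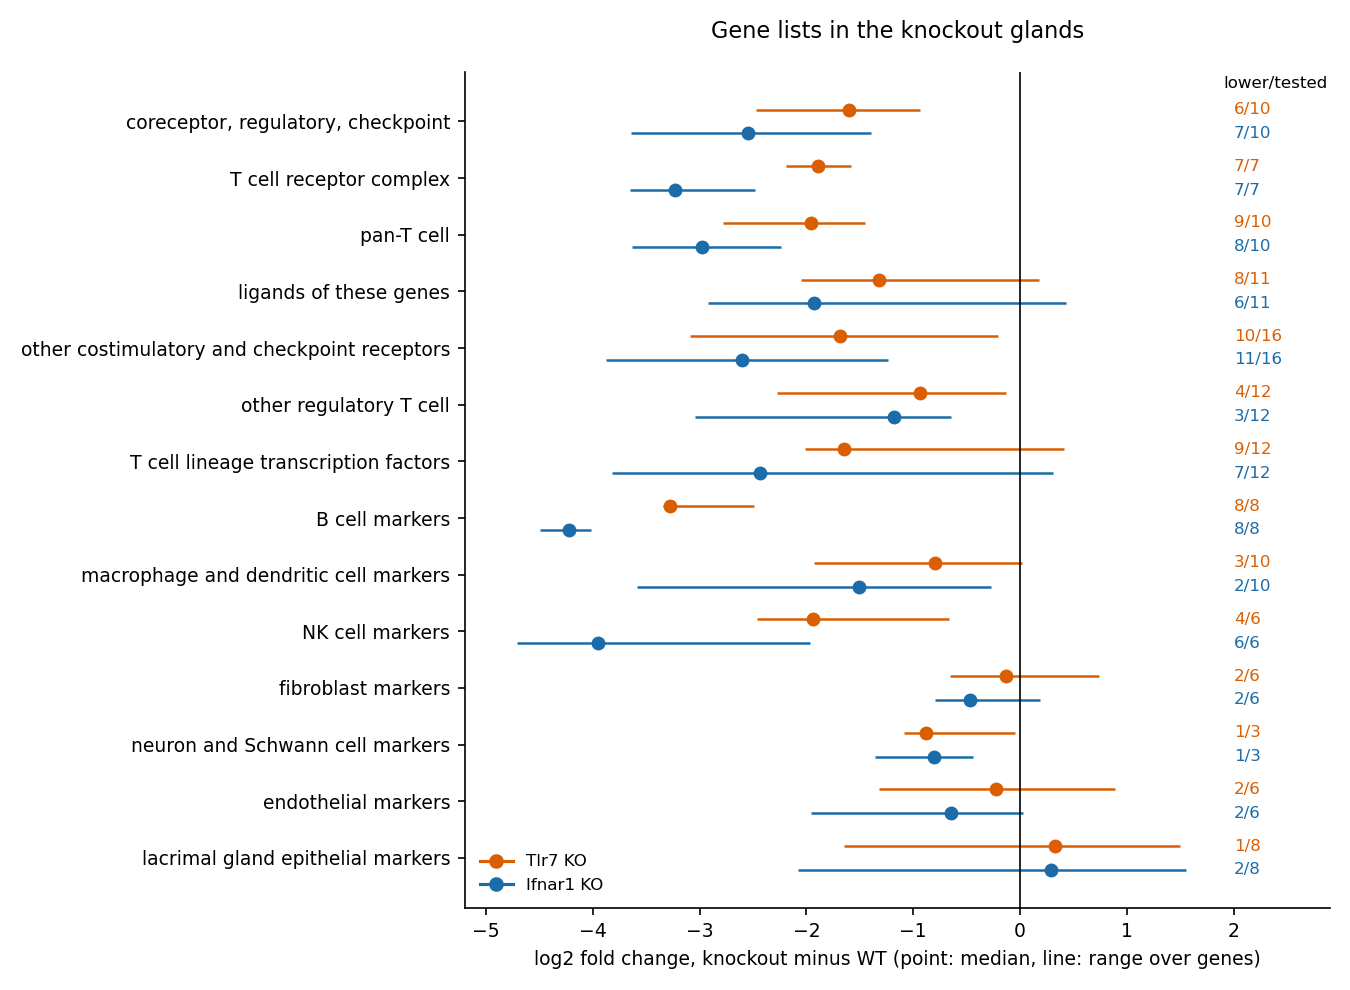
Median (point) and range (line) of the log2 fold change over the genes of each list (horizontal axis, knockout minus WT) in Tlr7 KO and Ifnar1 KO, with the number called lower over the number tested at the right. B cell markers had the lowest medians, -3.28 and -4.22, and lacrimal gland epithelial markers had medians of 0.33 and 0.29.

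Markers of other cell types were examined in the same way. B cell markers fell for 8 of 8 genes in each knockout (medians -3.28 and -4.22, or -3.88 and -4.94 without mouse 2 of the knockout), with the smallest adjusted p for Cd79b (-3.22, adjusted p = 0.00233, and -4.38, adjusted p = 0.0207). NK cell markers fell for 4 of 6 and 6 of 6 (medians -1.94 and -3.95), and macrophage and dendritic cell markers for 3 of 10 and 2 of 10 (medians -0.80 and -1.51), among them Csf1r and Flt3 in each, where 17.4% and 12.4% of all genes were called lower. Without WT 2, 7 of 10 macrophage and dendritic cell markers were called lower in Tlr7 KO (25.6% of all genes), while for Ifnar1 KO this held for 8 of 10 (20.8%), and without Ifnar1 KO 2, 4 of 10 in Ifnar1 KO (8.26%). Endothelial markers fell for 2 of 6 in each (Pecam1 and Cdh5), or 1 of 6 without mouse 2 of the knockout, with Kdr higher in Tlr7 KO (0.89, adjusted p = 0.0435) but not called without WT 2, and neuron and Schwann cell markers for 1 of 3 in each (Sox10), or 0 of 3 in Ifnar1 KO without Ifnar1 KO 2 (Sox10 -1.43, adjusted p = 0.0926). Of 8 lacrimal gland epithelial markers, Krt19 fell in each knockout and Muc1 in Ifnar1 KO, while Lpo and Pigr (0.99, adjusted p = 0.00124, and 1.17, adjusted p = 0.0225) were higher in each and Krt8 and Aqp5 in Tlr7 KO. Of these, the calls of Aqp5 in Tlr7 KO and of Muc1 and Lpo in Ifnar1 KO were lost without mouse 2 of that knockout (adjusted p = 0.0624, 0.0826 and 0.0564), with estimates of 0.36, -2.18 and 1.52 beside 0.35, -1.94 and 1.55 with all mice. The epithelial medians of 0.33 and 0.29 turned to -0.14 and 0.00 when libraries were scaled by their size only. The B cell marker Cd79a was at or above 1.3 CPM in every gland, while the NK cell marker Ncr1 was at 0 counts in the lowest Ifnar1 KO gland, and the part of these cells in the levels of the 10 genes was not tested.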

How the data were processed

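RNA from 1 lacrimal gland per mouse was sequenced by the authors on an Illumina HiSeq instrument. Per the labels reads were aligned to mm10 with HISAT2 2.1.0, and per the methods transcripts were quantified with salmon and summed to genes with tximport. The deposited main table holds estimated counts (expected counts, rounded to whole numbers, no fold change or p-value columns used). It is named as normalized but its totals differ between libraries, and it was therefore analysed as counts. The other table the authors deposited, of whole-number counts per gene, served as an alternative. Of its columns, 1 headed as a further Ifnar1 KO library matched no sample and was not used.

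Genes with at least 30 counts summed over WT were tested with edgeR 4.0.16 in R 4.3.3 (TMM, quasi-likelihood test, two-sided, separate fits per pair of groups, Benjamini-Hochberg adjustment over all genes tested, called at adjusted p under 0.05). The SE given with a log2 fold change is not an output of this fit. It was derived as the absolute log2 fold change divided by the square root of the F statistic, and is approximate. Ratios within a gland used log2 CPM with a prior count of 2 and exact permutation tests. No batch is labelled. The authors' tool, DESeq2 1.42.0, other scalings and filters, a stricter threshold of 0.01, the second table, a replicate block, each mouse left out and, chosen after seeing the data, robust estimation and the Ctla4 to Foxp3 pair were alternatives. Lists outside the 10 genes were also fitted after seeing the data under other scalings and without WT 2, Tlr7 KO 2 or Ifnar1 KO 2. Genes named outside the 10 are those of the lists, the targeted genes, and the 2 genes nearest in profile to each of the 10, of which 1 is not reported here. The 10 genes and the lists were chosen with earlier results of these data known.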

Additional observations from a re-analysis of the deposited data

Results flagged for a closer look

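Values of the 10 genes and of their ratios within a gland were screened in the group of 5 Tlr7 KO mice for a mouse far from the others, by the gap to its nearest neighbour as a share of the whole range. Of 26 values screened, 5 had such a gap, and chance alone gives about 1 in 20 for values that are normally distributed, which CPM values need not be. All 5 were the highest value of Tlr7 KO 2. Its Foxp3 was 2.21 CPM, against 0.165 to 0.383 CPM in the other Tlr7 KO mice. Its Cd5 was 2.95 CPM, against 0.315 to 0.613. Its Lag3 was 1.78 CPM, against 0.367 to 0.459. Its Cd8b1 was 1.21 CPM, against 0.0759 to 0.306, and its Ctla4 was 0.91 CPM, against 0.038 to 0.289. On the log2 CPM scale, tried after seeing the data, 3 of the 10 genes still had such a gap (Foxp3, Lag3 and Cd5), and Cd8b1 and Ctla4 had smaller ones (0.569 and 0.461 of the range, against a limit of 0.71). The remaining genes of the 10 were also highest in this mouse, without a gap of that size. The values are correlated through the shared library, so the 5 are not independent of each other.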

How the results depend on the processing

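All 10 genes kept a lower estimate in both knockouts than in WT under every alternative that tested them. Between the knockouts, Foxp3 and Tigit changed sign in some fits, and the median over the 10 genes ran from 0.22 to 1.92 with each mouse left out. The number called lower in Tlr7 KO was 6 with all mice (17.4% of all genes), 8 in DESeq2 (17.7%) and with library size only (30.7%), 5 with robust estimation (17.1%), 2 at an adjusted p under 0.01 (7.18%), and 2 to 10 with each mouse left out. In Ifnar1 KO it was 7 with all mice (12.4% of all genes), 9 in DESeq2 (15%), 6 with library size only (9.25%) or the second table (12.6%), 8 with all 11 mice in a single fit (19.1%), 0 at an adjusted p under 0.01, where 1 gene of the whole table was called lower, and 0 to 9 with each mouse left out. Between the knockouts the number called higher in Tlr7 KO was 0 with all mice, where 129 genes of the whole table were called higher. It was 0 to 1 with each mouse left out, the 1 being Cd4 without Ifnar1 KO 2, where 518 genes of the whole table were called higher. With the replicate number as a block, in 3 pairs, 0 genes were called in Tlr7 KO, 0 in Ifnar1 KO and 2 between the knockouts (Cd4 and Cd5, higher in Tlr7 KO). That fit called 14 genes of the whole table lower in Tlr7 KO, 0 in Ifnar1 KO, and 128 lower and 405 higher between the knockouts, so the counts of 0 were not particular to these genes. Deviations of same-numbered mice had correlations from -0.4 to 0.0305 for WT and Tlr7 KO and from -0.44 to -0.159 for WT and Ifnar1 KO. For the knockouts they were positive, at 0.0645, 0.34 and 0.26, with that of number 1 near 0, and mouse 2 was the highest of each knockout group for 10 of 10 genes. The labels tie nothing else to the number. With library size as the only scaling, the median of all genes went to -0.54 in Tlr7 KO and -0.31 in Ifnar1 KO, and the share of lower calls went from 53.2% to 97.2% and from 64.8% to 96.2%. Counts of 10 or fewer in many knockout glands limit Cd8b1, Foxp3 and Ctla4 most.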
